A study of Mus musculus with 12 samples.

Results

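The 51 genes described here encode the machinery that copies DNA, and they were taken as a list of named replication factors. The rule used no measured level, but the list was drawn up with earlier results of these data known. All 51 were present among the 19937 genes that could be tested, each read from the probe set row with the highest mean. Levels of mRNA had been read with Affymetrix Mouse Gene 1.0 ST arrays from untreated cells sorted from C57BL/6 bone marrow, at 4 stages with 3 arrays a stage. The LSK sort (lineage negative, Sca1 positive, cKit positive) takes stem cells and early progenitors. Promyelocytes, myelocytes and granulocytes were sorted from marrow depleted of lymphoid and Sca1-positive cells, by their levels of Gr-1, cKit, CD34 and CD16/32. No stage carried a transgene, a deletion or a treatment that the labels name, and the ages and sexes of the mice and the number pooled for an array are not given in the sources used here. The labels call the arrays biological replicates without saying that they came from separate animals, so the p-values measure only how far these samples vary, and some of that may be technical. Levels are log2 values, on which a difference of 1 is a doubling, and each is relative to the other transcripts on the same array. The markers of each stage were where its label puts them: Kit, Cd34 and Flt3 were highest in LSK cells, Mpo and the other primary granule genes in promyelocytes, and Cxcr2 and Il1b in granulocytes, while the secondary granule genes Ltf and Camp were high from myelocytes on.

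DNA replication begins where the origin recognition complex (Orc1 to Orc6) sits on DNA and, with Cdc6 and Cdt1, loads the ring-shaped MCM helicase. The Cdc7 kinase with its partner Dbf4, together with Cdc45, the GINS complex and Mcm10, turns the loaded ring into a moving helicase. Primase and the polymerases alpha, delta and epsilon then synthesise the new strands. Polymerases delta and epsilon work with the sliding clamp PCNA, which the RFC complex loads. Many of these genes are targets of the E2F transcription factors, and proliferating myeloid cells are known to stop dividing after the myelocyte stage, so that mature granulocytes no longer replicate their DNA.

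Promoter sequence was examined first, because letters of the E2F type are a feature that the choice of the genes did not use. A window of 300 bases, from 250 before to 50 after the annotated transcript start, was taken from RefSeq (GRCm38.p6) for each of the 42 members that had one. The motif was searched on both strands as the letters TTTCCCGC, TTTCGCGC, TTTGCCGC and TTTGGCGC, and matches may overlap each other. Of the 42 members with a window, 16 (38.1%) held at least 1 match, against 704 of 27025 genes (2.61%) in the whole table and 479 of 11032 tested genes above dim signal (4.34%). The 16 were Orc1, Orc3, Cdc6, Cdt1, Mcm3, Mcm5, Mcm6, Mcm7, Mcm8, Gins3, Pola1, Pold1, Pold3, Pole2, Rfc3 and Lig1. They held 22 matches, whose first bases lay between positions -165 and 40 relative to the start, and 5 members held more than 1. The 4 windows below are shown because they contrast a licensing factor that was higher in promyelocytes than in LSK cells (Cdc6), a helicase subunit with several matches (Mcm6), a polymerase subunit (Pola1) and the member that did not fall (Orc4). Each is read 5′ to 3′ on the strand of its gene, and capitals mark the matches. Cdc6 lies at chr11:98907901-98908200 on the plus strand, Mcm6 at chr1:128359656-128359955 on the minus strand, Pola1 at chrX:93632106-93632405 on the minus strand and Orc4 at chr2:48949218-48949517 on the minus strand.
Cdc6: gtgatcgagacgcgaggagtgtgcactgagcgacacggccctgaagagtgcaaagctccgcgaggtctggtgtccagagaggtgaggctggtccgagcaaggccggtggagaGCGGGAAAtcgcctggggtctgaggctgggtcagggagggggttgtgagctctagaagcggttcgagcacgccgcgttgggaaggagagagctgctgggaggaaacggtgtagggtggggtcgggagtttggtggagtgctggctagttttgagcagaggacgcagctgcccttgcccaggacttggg
Mcm6: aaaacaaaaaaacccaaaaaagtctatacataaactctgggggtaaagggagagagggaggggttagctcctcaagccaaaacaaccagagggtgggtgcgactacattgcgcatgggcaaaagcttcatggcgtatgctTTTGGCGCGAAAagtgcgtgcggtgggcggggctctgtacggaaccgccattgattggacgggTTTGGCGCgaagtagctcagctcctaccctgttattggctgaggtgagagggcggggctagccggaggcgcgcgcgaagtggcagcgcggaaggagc
Pola1: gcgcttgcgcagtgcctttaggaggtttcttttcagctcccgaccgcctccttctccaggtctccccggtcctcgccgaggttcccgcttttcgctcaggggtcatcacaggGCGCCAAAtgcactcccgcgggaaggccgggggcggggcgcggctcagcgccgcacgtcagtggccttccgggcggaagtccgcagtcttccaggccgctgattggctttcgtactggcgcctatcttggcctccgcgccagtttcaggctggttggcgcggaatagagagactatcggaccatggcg
Orc4: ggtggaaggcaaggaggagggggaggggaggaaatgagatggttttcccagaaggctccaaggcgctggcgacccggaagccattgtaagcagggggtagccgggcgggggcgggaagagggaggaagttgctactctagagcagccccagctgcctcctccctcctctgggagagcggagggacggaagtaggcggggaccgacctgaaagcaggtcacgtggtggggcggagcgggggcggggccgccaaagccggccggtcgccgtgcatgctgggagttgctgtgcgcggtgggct

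In Cdc6 and in Pola1 the single match began at position -138 relative to the transcript start. Mcm6 held 3 matches, at -110, -106 and -47, of which the first pair overlap on opposite strands. Orc4 has 3 windows in the table and held 0 matches in them. The letters CCAAT were found in 25 of the 42 members (59.5%) and in 41.1% of all genes with a window and 41.7% of tested genes above dim signal. TTTGAA was found in 7 members (16.7%), between the 20.2% of all genes and the 14.1% of tested genes above dim signal. The median difference between granulocytes and promyelocytes was -2.97 for the 16 members with an E2F-type match and -2.83 for the 26 without, as a description without a test. A match is a description of sequence and does not show that a factor binds there.

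Across the 4 stages, 50 of the 51 members differed in level (limma moderated F test, adjusted p under 0.05), where 54% of all genes tested did. The exception was Orc4. The median over the members of their stage means was 8.29 in LSK cells, 8.44 in promyelocytes, 6.90 in myelocytes and 5.66 in granulocytes. For 40 members the means ran in 1 order, promyelocytes highest, then LSK cells, myelocytes and granulocytes. For 7 more LSK cells came first and the rest followed in the same order. Of the 19937 genes tested, 2303 had the first of these orders and 1611 the second. The heat map of the members by array shows LSK cells and promyelocytes as a block of high values and a graded loss from there. Since these are bulk samples, fewer cycling cells in a sort and less of each mRNA per cell cannot be told apart.

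**Figure D1:**
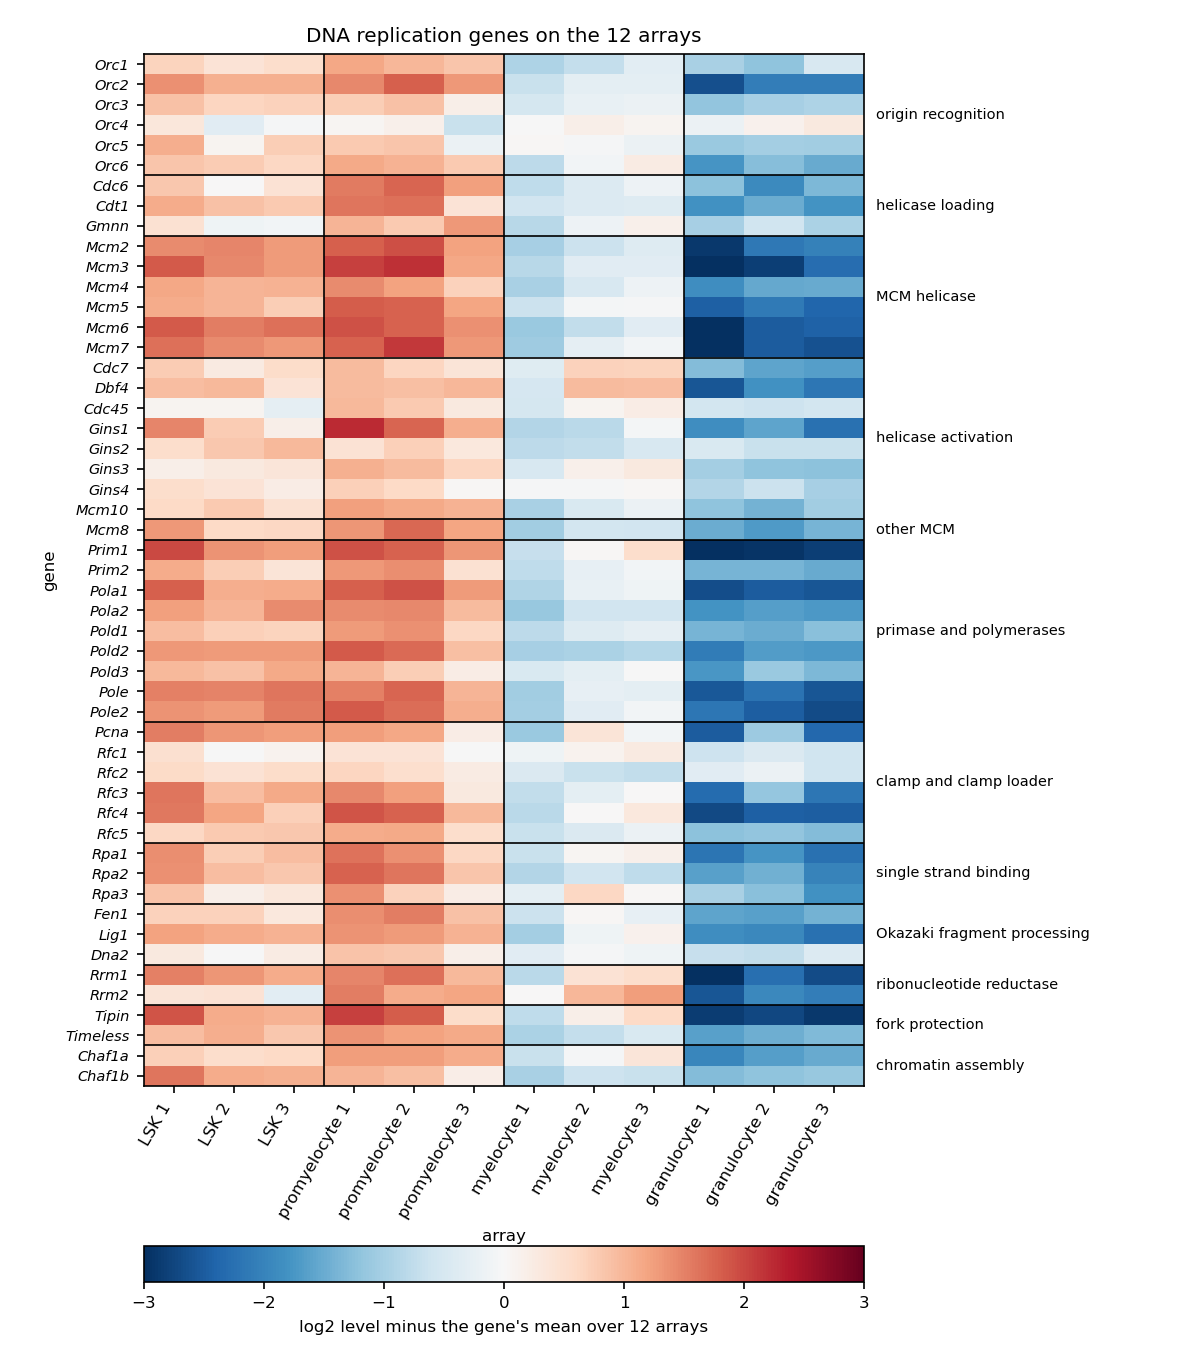
Level of each of the 51 DNA replication genes (rows, ordered by role) on each of the 12 arrays (columns, by stage), as the difference from the gene's own mean over all arrays on the log2 scale. In 48 rows granulocytes have the lowest mean, Gins2 and Rfc2 are lowest in myelocytes and Orc4 in promyelocytes. Of all genes tested, 25.2% have their lowest mean in granulocytes.

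Between LSK cells and promyelocytes, the first of the 3 steps, few members differed. A gene was called where the limma fit gave it at least a 2-fold change with an adjusted p (Benjamini-Hochberg) below 0.05. By this rule 2 of 51 members, Cdc6 and Rrm2, were called, both higher in promyelocytes, where 1.61% of all genes were called higher, 2.75% lower and 4.36% in either direction. The members' median difference was 0.25, with a range from -0.56 (Chaf1b) to 1.11 (Rrm2), against a median of 0.04 for all genes. The members' median depended on single arrays: it was 0.11 without promyelocyte 1, 0.10 without promyelocyte 2, 0.46 without promyelocyte 3 and between 0.19 and 0.36 without an LSK array. The arrays of the 2 stages did not overlap for 13 members, and for 13.5% of all genes in the higher and 12.9% in the lower direction. No member was called lower at this step, although the difference was negative for 10 members.

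From promyelocytes to myelocytes, the second step, 38 members (74.5%) fell and 0 rose, where 9.87% of all genes were called lower, 7.61% higher and 17.5% in either direction. The median difference was -1.48, against 0.01 for all genes, and the largest falls were those of Mcm6 (-2.42), Pold2 (-2.41) and Mcm2 (-2.32). From myelocytes to granulocytes, the last step, 31 (60.8%) fell and 0 rose, where 5.96% of all genes were called lower, 2.35% higher and 8.31% in either direction. Here the median was -1.24, against 0.09, and the largest falls among members still above dim signal in granulocytes were those of Rrm2 (-2.94) and Rrm1 (-2.78). Prim1 and Tipin fell to dim signal, by at least 2.36 and 2.60. All myelocyte arrays lay below all promyelocyte arrays for 42 members, where 22.5% of all genes did likewise, and granulocytes lay below myelocytes for 45, where 19.8% did.

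Over both steps together, 48 members (94.1%) were lower in granulocytes than in promyelocytes and 0 were higher, where 16.3% of all genes were called lower, 10.1% higher and 26.4% in either direction. The members' median difference was -2.86 and that of all genes 0.13. Against LSK cells, 45 (88.2%) were lower in granulocytes, where 16.5% of all genes were called lower, 9.59% higher and 26.1% in either direction, and 35 (68.6%) were lower in myelocytes, where 10.8% were called lower, 7.74% higher and 18.5% in either direction. These comparisons share arrays with one another. The 3 members that did not pass from promyelocytes to granulocytes were Orc4, Rfc1 and Rfc2. The arrays of granulocytes lay wholly below those of promyelocytes for 50 members, where 25.3% of all genes did. Below LSK cells lay the granulocytes of 50 members and the myelocytes of 42, where 26.8% and 24% of all genes did.

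**Figure D2:**
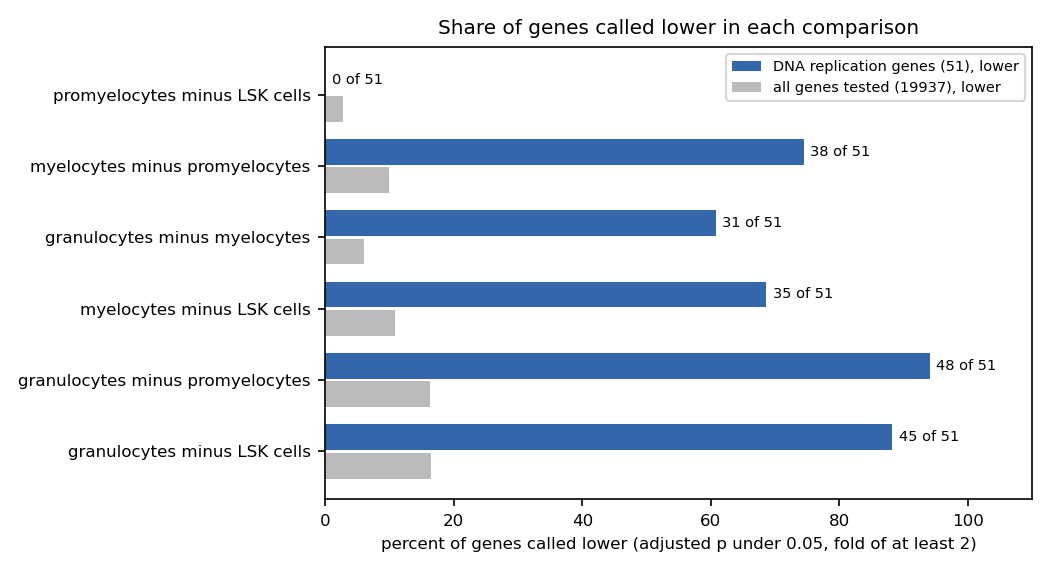
Share of genes called lower (at least 2-fold, adjusted p below 0.05) in each comparison, for the 51 DNA replication genes (blue, with the number called) and for all 19937 genes tested (grey). The members' share is 0 from LSK cells to promyelocytes and between 60.8% and 94.1% in the other comparisons, where that of all genes is at most 16.5%.

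The level of dim signal was taken as 4.54, the 95th percentile of the stage means of 1194 olfactory and vomeronasal receptor genes, which are not expected to be expressed in marrow. No member lay at or under it in LSK cells or promyelocytes, 1 did in myelocytes (Orc1) and 8 did in granulocytes: Orc1, Cdc7, Gins1, Mcm8, Prim1, Pole, Pole2 and Tipin. For these 8 the measured difference to granulocytes runs below dim signal, so its size has only a lower limit, taken from the earlier stage's mean down to 4.54. From myelocytes this limit was 0.78 for Gins1 and 0.90 for Pole2. Both limits are under a fold of 2, although both genes were called at the last step. With the 8 set at that limit, the members' median difference between granulocytes and promyelocytes was -2.85 in place of -2.86, and that between granulocytes and myelocytes -1.14 in place of -1.24. The granulocyte means of Rpa3 (4.543), Dbf4 (4.548) and Gmnn (4.570) lay just above dim signal. Their measured differences to granulocytes therefore also end close to it.

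Of the 6 subunits of the origin recognition complex, 5 were lower in granulocytes than in promyelocytes, with differences from -1.53 to -3.77. Orc2 read 8.26, 7.95 and 7.96 on the LSK arrays, 8.33, 8.69 and 8.19 in promyelocytes, 6.22, 6.60 and 6.61 in myelocytes and 4.25, 4.82 and 4.82 in granulocytes. Its LSK and promyelocyte arrays overlapped and each later stage lay below all arrays of the stage before. Orc2 fell by 1.93 ± 0.19 (SE) to myelocytes and by a further 1.85 ± 0.19 to granulocytes. Orc1, an ATPase subunit, fell by 1.65 ± 0.19 to myelocytes (adjusted p = 4.99e-06) and was then at dim signal, with stage means of 4.42 and 4.19. Orc6 fell at both steps (-1.20 and -1.32), although the first of these did not reach a fold of 2 without myelocyte 1 (-0.91). Orc3 and Orc5 were called at neither step alone and lower over both (-1.63 and -1.53).

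Orc4 stood apart from the other subunits. It read 7.49, 6.82 and 7.11 in LSK cells, 7.21, 7.30 and 6.48 in promyelocytes, 7.14, 7.34 and 7.23 in myelocytes and 6.98, 7.29 and 7.45 in granulocytes. The 4 stages overlapped throughout. The difference between granulocytes and promyelocytes was 0.24 ± 0.22 (adjusted p = 0.372) and became -0.01 without promyelocyte 3, the lowest array. Against LSK cells it was 0.10 ± 0.22.

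The helicase loaders Cdc6 and Cdt1 and the Cdt1 inhibitor geminin (Gmnn) had their highest means in promyelocytes. Cdc6 read 7.45, 6.65 and 7.08 in LSK cells and 8.20, 8.38 and 7.87 in promyelocytes. It then read 5.88, 6.24 and 6.49 in myelocytes and 5.42, 4.74 and 5.30 in granulocytes. No stage overlapped another: Cdc6 rose by 1.09 ± 0.23 from LSK cells to promyelocytes (adjusted p = 0.00476), fell by 1.95 ± 0.23 to myelocytes and by 1.05 ± 0.23 to granulocytes. Leaving out LSK 2 (0.89) or promyelocyte 2 (0.98) took the rise below the fold required. The last fall was below it without granulocyte 2 (-0.84) or myelocyte 3 (-0.90). Geminin read 5.88, 5.29 and 5.35 in LSK cells, 6.45, 6.21 and 6.72 in promyelocytes, 4.59, 5.26 and 5.58 in myelocytes and 4.43, 4.81 and 4.47 in granulocytes. Its promyelocyte arrays lay above those of every other stage. The difference from LSK cells to promyelocytes, 0.95 ± 0.23, did not reach a fold of 2, and geminin fell by 1.31 ± 0.23 to myelocytes (-0.91, under the fold required, without both promyelocyte 3 and myelocyte 1). Granulocytes were below LSK cells by less than the fold required (-0.94). Cdt1 fell at both later steps (-1.69 and -1.24).

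All 6 subunits of the MCM helicase, which unwinds the double strand ahead of the fork, fell at both later steps and in both comparisons of granulocytes with the early stages. From promyelocytes to granulocytes their differences were between -2.75 and -4.60, a fold of 24.3 for Mcm3, 21.6 for Mcm7, 15.9 for Mcm2, 15.1 for Mcm5 and 6.75 for Mcm4. Mcm6 read 10.65, 10.35 and 10.45 in LSK cells, 10.73, 10.59 and 10.18 in promyelocytes, 7.69, 8.08 and 8.46 in myelocytes and 5.83, 6.32 and 6.38 in granulocytes. LSK cells and promyelocytes overlapped, and the later stages were separate from them and from each other. Mcm6 fell by 2.42 ± 0.21 (adjusted p = 1.84e-07) and then by 1.90 ± 0.21 (adjusted p = 8.97e-06). Mcm4, the subunit with the smallest change, read 9.28, 9.15 and 9.17, then 9.53, 9.34 and 8.82, then 7.15, 7.65 and 7.96, and in granulocytes 6.25, 6.58 and 6.60. Its arrays were in the same arrangement as those of Mcm6. The last fall of Mcm4 (-1.11 ± 0.21) was near the fold required and was lost without granulocyte 1 (-1.0) or myelocyte 3 (-0.92), with arrays centred on their 75th percentile (-0.95) and with quantile normalization (-0.91). None of the 6 differed by a fold of 2 between LSK cells and promyelocytes, where the largest difference was that of Mcm5 (0.63).

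Mcm8, a relative of these subunits with known roles in recombination, read 6.87, 6.15 and 6.18 in LSK cells, 6.90, 7.29 and 6.74 in promyelocytes, 4.51, 5.02 and 4.98 in myelocytes and 4.08, 3.86 and 4.17 in granulocytes. Its first pair of stages overlapped and the later stages were separate. It fell by 2.14 ± 0.21 at the second step, and granulocytes were at dim signal, so the size of the last step cannot be read.

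The 8 genes that activate the helicase were all lower in granulocytes than in promyelocytes, with differences from -1.09 to -3.58, the last that of Gins1, which reached dim signal (at least 3.05). Mcm10 read 7.57, 7.76 and 7.42 in LSK cells, 8.21, 8.11 and 8.00 in promyelocytes, 6.00, 6.50 and 6.79 in myelocytes and 5.76, 5.55 and 5.92 in granulocytes. Its stages did not overlap, and it fell by 1.68 ± 0.18 to myelocytes, with a smaller difference at the last step that was not called (-0.69 ± 0.18). Cdc45 varied least in the group. It read 8.01, 8.00 and 7.66 in LSK cells, 8.89, 8.70 and 8.21 in promyelocytes, 7.41, 8.00 and 8.15 in myelocytes and 7.38, 7.29 and 7.38 in granulocytes. Its promyelocytes lay above all other arrays and its granulocytes below, while LSK cells and myelocytes overlapped. Granulocytes were lower than promyelocytes (-1.25 ± 0.20, adjusted p = 8e-05) and not called against LSK cells (-0.54 ± 0.20). Of the 4 GINS subunits, Gins1 fell at both steps (-2.27 and a measured -1.31) and Gins3 at the last only (-1.15). The last fall of Gins1 ended at dim signal, with a lower limit of 0.78 that is under the fold required. Gins2 fell at the second step only (-1.16), and Gins4 was called only over both (-1.29). Without granulocyte 3, Gins1 missed the p threshold at the last step (adjusted p = 0.0509), and leaving out myelocyte 3 took Gins3 just under the fold (-0.99). The fall of Gins2 to granulocytes (-1.09) was near the threshold and was lost without promyelocyte 2 (-0.97).

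The kinase Cdc7 and its activator Dbf4 were, like Gins3, called at the last step and not at the second. Cdc7 read 6.82, 6.53 and 6.26 in promyelocytes, 5.52, 6.57 and 6.54 in myelocytes and 4.57, 4.29 and 4.21 in granulocytes, after 6.64, 6.14 and 6.44 in LSK cells. Dbf4 read 7.66, 7.71 and 7.15 in LSK cells, 7.69, 7.62 and 7.72 in promyelocytes, 6.22, 7.67 and 7.66 in myelocytes and 4.17, 4.92 and 4.55 in granulocytes. Myelocytes 2 and 3 were at the level of promyelocytes for both genes, and only myelocyte 1 was lower. From promyelocytes to myelocytes Cdc7 differed by -0.33 ± 0.25 and Dbf4 by -0.49 ± 0.31, neither of them called. From myelocytes to granulocytes Cdc7 fell by 1.85 ± 0.25, to dim signal, and Dbf4 by 2.63 ± 0.31, to just above it.

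All 9 primase and polymerase subunits were lower in granulocytes than in promyelocytes, with measured differences from -2.07 to -4.81, and all 9 were lower in myelocytes and in granulocytes than in LSK cells. Pole, the catalytic subunit of the leading strand polymerase, read 8.44, 8.41 and 8.53 in LSK cells, 8.44, 8.67 and 7.95 in promyelocytes, 5.88, 6.69 and 6.64 in myelocytes and 4.39, 4.71 and 4.36 in granulocytes. The first pair of stages overlapped and the others did not. It fell by 1.95 ± 0.22 and 1.92 ± 0.22 at the later steps, the last to dim signal. Prim2, the large primase subunit, read 7.62, 7.24 and 6.88, then 7.80, 7.88 and 6.96, then 5.73, 6.26 and 6.42, and in granulocytes 5.10, 5.11 and 4.98. Its arrangement was the same, with falls of 1.41 ± 0.25 and 1.07 ± 0.25, the second lost without myelocyte 3 (-0.93). Between myelocytes and LSK cells it was lost without LSK 1 (-0.92) or myelocyte 1 (-0.90).

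The catalytic primase subunit Prim1 read 8.93, 8.29 and 8.20 in LSK cells, 8.85, 8.72 and 8.26 in promyelocytes, 6.24, 6.99 and 7.48 in myelocytes and 3.26, 4.00 and 4.13 in granulocytes. The later stages did not overlap. Granulocytes were at dim signal and below promyelocytes by at least 4.07 on the log2 scale, at least 16.8-fold lower (measured difference -4.81 ± 0.30, adjusted p = 2.03e-09). Pola1, the catalytic subunit that extends the primer, was lower by 4.24 ± 0.23, a fold of 18.9. Pola2, Pold1 and Pold2 fell at the second step and their further differences of -0.90 to -0.96 were under the fold required, while Pold3 fell at the last step only (-1.14), a call lost without granulocyte 1 (-0.97), with 75th percentile centring (-0.98) and with quantile normalization (-0.96).

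For Pcna, the sliding clamp, the row used of its 2 probe set rows differed between granulocytes and promyelocytes by -2.85 and the other by -2.60. RefSeq lists near-identical pseudogenes, Pcna-ps1 and Pcna-ps2, and which locus each row reads was not determined, so its values are uncertain. Pcna read 11.77, 11.57 and 11.49 in LSK cells, 11.48, 11.39 and 10.46 in promyelocytes, 9.13, 10.63 and 10.15 in myelocytes and 7.75, 9.14 and 7.88 in granulocytes. Neighbouring later stages overlapped. Its fall to myelocytes (-1.14 ± 0.39, adjusted p = 0.0300) was lost without myelocyte 1 (-0.72), promyelocyte 1 (-0.96) or promyelocyte 2 (-1.0). It was also lost in the other row (-0.90), and in a fit with an intensity trend and robust prior (adjusted p = 0.0704).

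The 5 subunits of the clamp loader did not move as 1 complex. Rfc4 read 9.46, 9.05 and 8.59 in LSK cells, 9.76, 9.64 and 8.86 in promyelocytes, 7.06, 7.89 and 8.19 in myelocytes and 5.18, 5.42 and 5.40 in granulocytes. From promyelocytes on, no stage overlapped the next, and Rfc4 was lower by 4.09 ± 0.29 in granulocytes, a fold of 17.0. Rfc3 (-2.86) and Rfc5 (-2.16) fell as well. Rfc1, the large subunit, read 8.88, 8.40 and 8.52, then 8.81, 8.82 and 8.39, then 8.28, 8.52 and 8.69, and in granulocytes 7.80, 7.98 and 7.82. Its first 3 stages overlapped and granulocytes lay below all of them. The difference between granulocytes and promyelocytes, -0.81 ± 0.17 (adjusted p = 0.000857), passed the test and not the fold of 2, and the same held against LSK cells (-0.73). Rfc2 read 9.84, 9.71 and 9.83 in LSK cells, 9.92, 9.78 and 9.53 in promyelocytes, 8.84, 8.62 and 8.53 in myelocytes and 8.93, 9.10 and 8.68 in granulocytes. The early and late stages did not overlap, and the late pair did. Rfc2 fell by 1.08 ± 0.15 to myelocytes, a call lost without promyelocyte 1 (-0.99), with a difference of 0.24 ± 0.15 at the last step.

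The RPA complex coats the single strands that the helicase exposes, and its 3 subunits were all lower in granulocytes. Rpa2 read 8.74, 8.30 and 8.16 in LSK cells, 9.13, 8.97 and 8.18 in promyelocytes, 6.47, 6.79 and 6.61 in myelocytes and 5.73, 5.91 and 5.35 in granulocytes. The later stages were separate, and Rpa2 fell by 2.14 ± 0.23 to myelocytes, with a further -0.96 ± 0.23 that was under the fold required. Rpa1 fell at both steps (-1.37 and -1.91). Rpa3, the smallest subunit, read 6.75, 6.07 and 6.22, then 7.26, 6.59 and 6.11, then 5.58, 6.52 and 5.93, and in granulocytes 4.92, 4.64 and 4.07. The first 3 stages overlapped and granulocytes lay below them. Rpa3 fell at the last step (-1.47 ± 0.30), while its other probe set row differed there by -0.48 and from promyelocytes by -0.99, and was not called in either.

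Of the genes that join the lagging strand, the ligase Lig1 and the flap nuclease Fen1 fell at both later steps. Lig1 read 9.64, 9.55 and 9.48 in LSK cells, 9.78, 9.70 and 9.47 in promyelocytes, 7.40, 8.30 and 8.55 in myelocytes and 6.57, 6.49 and 6.19 in granulocytes. Its later stages did not overlap, and it fell by 1.56 ± 0.23 and 1.67 ± 0.23. Fen1 fell by 1.56 and 1.26. The nuclease and helicase Dna2 read 7.85, 7.54 and 7.78, then 8.39, 8.35 and 7.71, then 7.22, 7.50 and 7.41, and in granulocytes 6.84, 6.81 and 7.13. Promyelocytes, myelocytes and granulocytes did not overlap. Dna2 was called over both steps (-1.22 ± 0.18) and at neither alone, and it was not called against LSK cells (-0.79).

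Ribonucleotide reductase makes the deoxynucleotides, with Rrm1 as the large and Rrm2 as the small subunit. Rrm1 read 10.62, 10.44 and 10.22 in LSK cells, 10.58, 10.78 and 10.09 in promyelocytes, 8.31, 9.55 and 9.64 in myelocytes and 5.90, 6.85 and 6.42 in granulocytes. The first pair of stages overlapped and each later stage was below the one before. Rrm2 read 8.54, 8.58 and 7.83 in LSK cells, 9.70, 9.26 and 9.34 in promyelocytes, 8.16, 9.14 and 9.40 in myelocytes and 5.60, 6.22 and 6.07 in granulocytes. For Rrm2 the promyelocyte arrays were above all LSK arrays, myelocytes overlapped both of the earlier stages, and granulocytes were below all others. Rrm2 rose by 1.11 ± 0.29 from LSK cells to promyelocytes (adjusted p = 0.0163), a call that rested on single arrays: it was 0.87 without LSK 3 (adjusted p = 0.0987) and 0.98 without promyelocyte 1 (adjusted p = 0.0732). It differed by -0.53 ± 0.29 between promyelocytes and myelocytes, a value that was -0.16 without myelocyte 1 and -0.78 without myelocyte 3, and fell by 2.94 ± 0.29 to granulocytes. Rrm1 fell by 1.31 ± 0.31 and 2.78 ± 0.31, the first of these under a fold of 2 without myelocyte 1 (-0.89).

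Timeless and its partner Tipin protect the fork. Timeless read 7.30, 7.45 and 7.18 in LSK cells, 7.73, 7.58 and 7.51 in promyelocytes, 5.41, 5.67 and 5.92 in myelocytes and 4.75, 4.90 and 5.05 in granulocytes. No stage overlapped another, and its fall to myelocytes was 1.94 ± 0.15 (adjusted p = 7.77e-08). Tipin read 9.03, 8.26 and 8.18, then 9.18, 8.96 and 7.70, then 6.37, 7.31 and 7.73, and in granulocytes 4.29, 4.40 and 4.23. Promyelocyte 3 and myelocyte 3 overlapped, and granulocytes lay far below at dim signal. Tipin fell by 1.48 ± 0.37 to myelocytes and then by at least 2.60 (measured difference -2.83 ± 0.37).

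Chromatin assembly factor 1 places histones behind the fork. Its subunit Chaf1a read 7.61, 7.43 and 7.50 in LSK cells, 8.16, 8.17 and 8.01 in promyelocytes, 6.24, 6.86 and 7.26 in myelocytes and 4.95, 5.26 and 5.39 in granulocytes. Chaf1b read 8.90, 8.41 and 8.36, then 8.30, 8.20 and 7.49, then 6.31, 6.66 and 6.62, and in granulocytes 5.99, 6.07 and 6.15. No stage overlapped another in either gene, but the first step ran in opposite directions, 0.60 ± 0.21 for Chaf1a and -0.56 ± 0.21 for Chaf1b, with neither called. The difference of Chaf1b was -0.31 without promyelocyte 3 and -0.71 without promyelocyte 1. Both fell to myelocytes (-1.33 and -1.47), and at the last step Chaf1a fell by 1.59 ± 0.21 where Chaf1b differed by -0.46 ± 0.21.

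**Figure D3:**
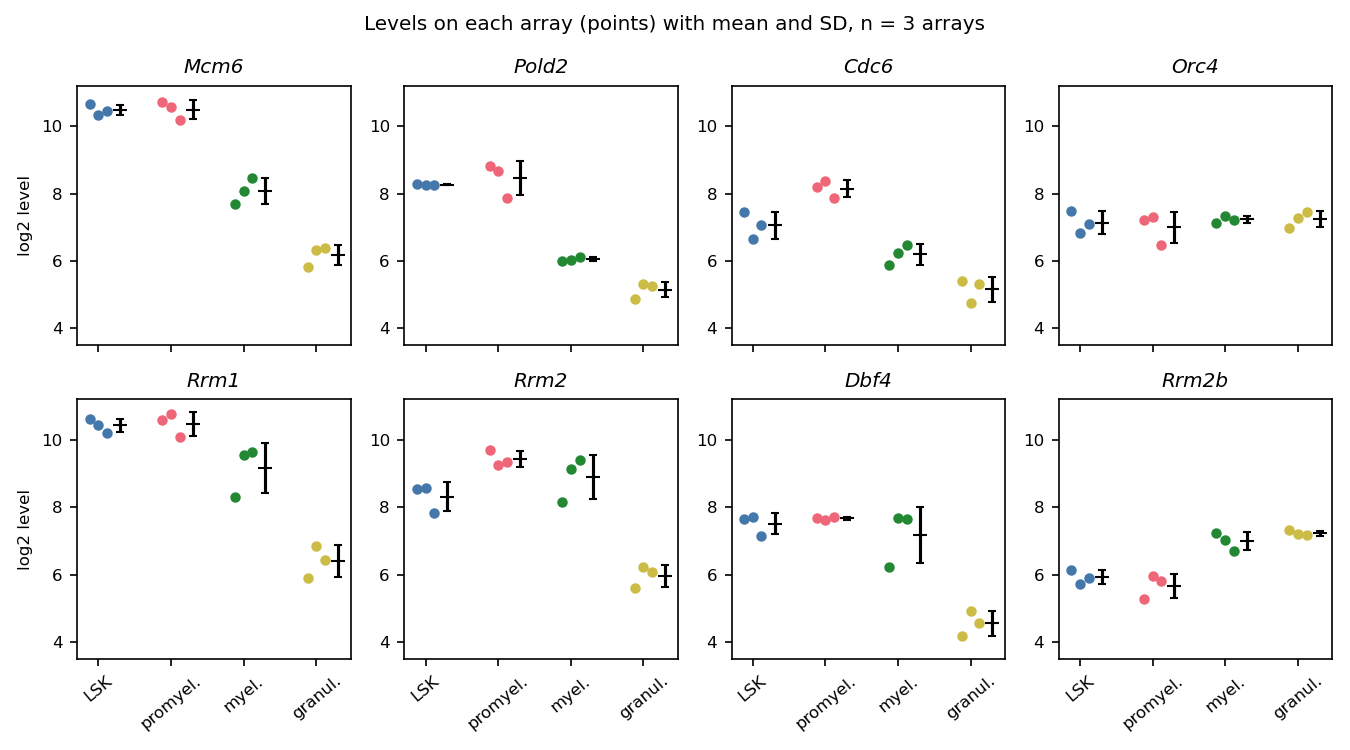
Log2 level of 8 genes on each array by stage, as points beside the mean and SD of the 3 arrays. Mcm6 falls at both later steps, Pold2 mostly at the second and Dbf4 and Rrm2 at the last, Orc4 is level, and Rrm2b, which is not among the 51, is higher in myelocytes and granulocytes than before.

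The step at which the members fell was compared next. Of the 51, 25 fell at both the second and the last step, 13 at the second only and 6 at the last only, while of all genes tested 527, 1441 and 661 did so. Among the 25, Gins1 and Pole2 ended at dim signal, with last steps of at least 0.78 and 0.90. The difference between the steps was tested in the same fit, the change from myelocytes to granulocytes minus that from promyelocytes to myelocytes, a test added after the data were seen. It was called for 10 members (19.6%), 7 higher (13.7%) and 3 lower (5.88%), where 5.98% of all genes were called higher, 7.55% lower and 13.5% in either direction. A positive value means that the earlier step was the more negative. It was positive for Pold2 (1.5 ± 0.35), Orc1 (1.42 ± 0.34), Mcm8 (1.34 ± 0.37), Rfc2 (1.32 ± 0.26), Gins2 (1.23 ± 0.28), Timeless (1.17 ± 0.27) and Pola2 (1.06 ± 0.32). Pold2 shows this on its arrays: 8.82, 8.69 and 7.88 in promyelocytes, 5.99, 6.04 and 6.13 in myelocytes and 4.89, 5.31 and 5.25 in granulocytes, after 8.28, 8.27 and 8.26 in LSK cells. Its later stages did not overlap, and it fell by 2.41 ± 0.20 at the earlier step, with a difference of -0.91 ± 0.20 at the last. Orc1 and Mcm8 end at dim signal, so which of their steps was the larger cannot be read.

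The loss was later for Rrm2 (-2.41 ± 0.49, adjusted p = 0.00288), Dbf4 (-2.14 ± 0.54, adjusted p = 0.0115) and Cdc7 (-1.53 ± 0.42, adjusted p = 0.0211). Without myelocyte 1 the test called 3 members higher and 6 lower, and without myelocyte 2 it called 7 higher and 1 lower. The shares of all genes called in these 2 fits were not computed, so the counts cannot be set against them. The differences of Cdc7 and Dbf4 no longer passed without myelocyte 2 (-1.17 and -1.65) or myelocyte 3 (-1.20 and -1.66). Among the positive ones, Orc1 (1.15), Mcm8 (1.01), Pola2 (0.69) and Timeless (0.91) no longer passed without myelocyte 1, the array on which most members were lowest. Pola2 was lost under 6 alternatives. For Pold2, Rfc2, Gins2 and Rrm2 the call was kept under all alternatives run.

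**Figure D4:**
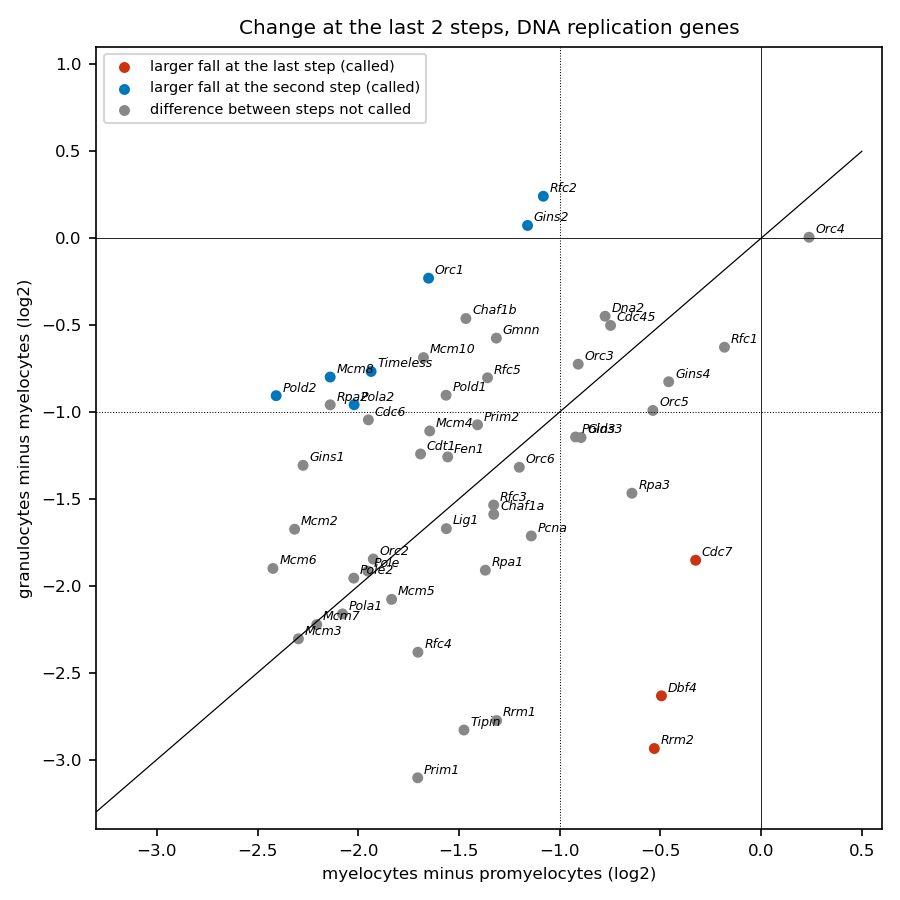
Log2 difference between myelocytes and promyelocytes (horizontal axis) and between granulocytes and myelocytes (vertical axis) for each of the 51 members, 1 point a gene, with equal differences on the diagonal line and the 10 genes whose steps differed by the test in colour. Most points are negative on both axes, Rrm2, Dbf4 and Cdc7 lie low and to the right, and Gins2 and Rfc2 lie left at about 0 on the vertical axis.

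A pair of further lists were read beside the members, chosen by function: 51 measured genes of the wider pathway (nucleotide supply, mismatch repair, histone supply and further replication factors) and 17 of the checkpoint that responds to stalled replication. From promyelocytes to granulocytes 38 of the 51 pathway genes fell and 3 rose, with a median difference of -2.51, and 14 of the 17 checkpoint genes fell and 0 rose, with a median of -2.64, where 16.3% of all genes were called lower and 10.1% higher. From LSK cells to promyelocytes 0 genes of either list were called, where 4.36% of all genes were. At the step to myelocytes 23 pathway genes fell and 2 rose, and at the step to granulocytes 25 fell and 2 rose, while of the checkpoint genes 10 and then 11 fell. Of all genes, 9.87% were called lower and 7.61% higher at the step to myelocytes. At the step to granulocytes these shares were 5.96% and 2.35%. Among those with the strongest differences across stages were the pathway genes Pole4, a small subunit of polymerase epsilon (-2.82), Msh6, of mismatch repair (-3.05), the histone chaperone Nasp (-3.22), Rif1, which sets replication timing (-3.72), and the maintenance DNA methyltransferase Dnmt1 (-2.73). In the checkpoint list they were the kinases Wee1 (-4.61) and Atr (-2.51), Brca2 (-3.06), the clamp subunit Rad1 (-2.78) and the helicase Blm (-3.13). The granulocyte means of Pole4, Rif1, Brca2 and Rad1 were at dim signal.

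The 3 pathway genes that rose from promyelocytes to granulocytes, where 10.1% of all genes were called higher, act in deoxynucleotide metabolism. Other such genes of the list fell, among them Tyms (-3.25), Dut (-2.51), Tk1 (-2.03) and Dctpp1 (-1.59). Samhd1, which degrades deoxynucleotides, read 8.77, 8.58 and 9.02 in LSK cells, 8.56, 8.37 and 8.73 in promyelocytes, 10.47, 10.23 and 10.13 in myelocytes and 11.74, 11.59 and 11.88 in granulocytes. Its late stages lay above the early ones and apart from each other. Samhd1 rose by 1.72 ± 0.16 and then 1.46 ± 0.16. The deoxycytidine kinase Dck, of the salvage pathway, read 7.85, 7.82 and 7.41, then 7.92, 7.36 and 7.03, then 7.83, 7.99 and 8.18, and in granulocytes 9.76, 9.58 and 9.79. The first 3 stages overlapped, and Dck rose by 1.71 ± 0.20 at the last step. Rrm2b, the small reductase subunit that non-dividing cells use in place of Rrm2, read 6.15, 5.72 and 5.90, then 5.27, 5.95 and 5.80, then 7.24, 7.04 and 6.70, and in granulocytes 7.32, 7.19 and 7.17. The late stages overlapped each other and lay above the early ones. Rrm2b rose by 1.32 ± 0.19 at the step to myelocytes, where Rrm1 fell and Rrm2 was not called, and differed by 0.23 ± 0.19 at the last.

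In promyelocytes and in myelocytes most members were lowest on the same array. Their median level was 8.39, 8.26 and 8.16 on the LSK arrays, 8.69, 8.68 and 7.97 in promyelocytes, 6.46, 7.02 and 7.23 in myelocytes and 5.42, 5.58 and 5.64 in granulocytes. Promyelocyte 3 was the lowest of its stage for 48 members, and myelocyte 1 was the lowest of its stage for 49. LSK 1, 2 and 3 were the lowest for 3, 23 and 25 members, and granulocyte 1, 2 and 3 for 28, 9 and 14. The same counts over all genes were not made. The median deviation from the stage mean was -0.40 on promyelocyte 3 and -0.39 on myelocyte 1. The median standard deviation within a stage was 0.31 for the members and 0.21 for all genes. With both of these arrays left out, an alternative chosen after seeing the data, 39 members fell from promyelocytes to myelocytes, 34 from myelocytes to granulocytes and 48 over both steps. Against LSK cells 28 were then lower in myelocytes and 45 in granulocytes, and 3 were higher in promyelocytes. The shares of all genes called without these arrays were not computed.

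**Figure D5:**
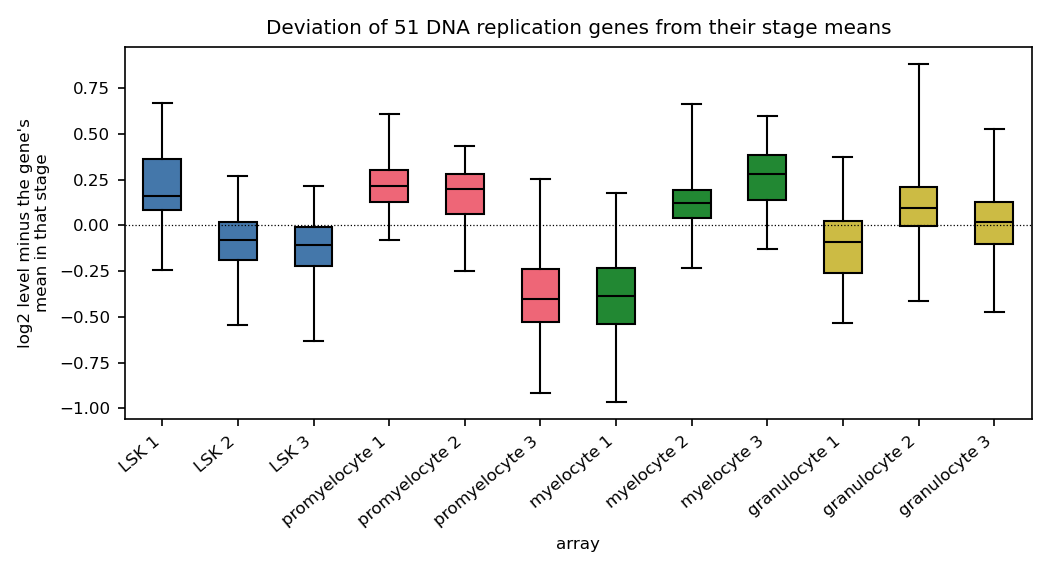
Deviation of each member's log2 level from its mean in the same stage, for each of the 12 arrays, with the box at the quartiles, the line at the median and whiskers over the full range of the 51 members. The boxes of promyelocyte 3 and myelocyte 1 lie below 0 and those of the other arrays of these stages above.

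Markers of other cell types also differed between arrays of a stage. The 6 basophil and mast cell markers (Mcpt8, Ms4a2, Cpa3, Prss34, Fcer1a, Hdc) had a summed log2 level of 51.7 to 66.0 in myelocytes, highest on myelocyte 1, 45.0 to 57.0 in promyelocytes, 30.2 to 35.5 in LSK cells and 33.9 to 35.6 in granulocytes, where Ms4a2, Cpa3 and Fcer1a were at dim signal. In promyelocytes the sum was 57.0, 45.0 and 48.7 on arrays 1, 2 and 3. All 6 were above dim signal in myelocytes and in promyelocytes, while Ms4a2 and Fcer1a were at dim signal in LSK cells as well. Hdc did not follow the sum. Its mean was highest in granulocytes (11.56), against 11.17 in myelocytes, 9.74 in promyelocytes and 7.30 in LSK cells. Mcpt8, a basophil protease, read 12.15, 10.98 and 9.70 in myelocytes, against 10.56, 8.33 and 9.77 in promyelocytes. The 6 eosinophil markers (Epx, Prg2, Prg3, Siglecf, Il5ra, Ear6) summed to 33.6 to 52.7 in promyelocytes, where 5 were above dim signal, and to 27.8 to 34.7 over the other stages. Epx read 9.81 on promyelocyte 1, 5.06 on promyelocyte 2 and 10.19 on promyelocyte 3. The sum was 50.3 on promyelocyte 1, 33.6 on promyelocyte 2 and 52.7 on promyelocyte 3. Siglecf did not follow it, at 7.73, 7.73 and 7.17. On these 3 arrays the members' median deviation from the stage mean was 0.22, 0.20 and -0.40. The 6 monocyte and macrophage markers measured summed to 47.2, 44.0 and 37.8 on the myelocyte arrays, highest on myelocyte 1, and to 47.7, 43.8 and 43.1 in promyelocytes, lowest on promyelocyte 3. The 5 megakaryocyte markers measured summed to 26.5, 29.4 and 26.2 in promyelocytes and to 28.0, 27.3 and 25.1 in myelocytes, highest on myelocyte 1. Over the arrays of these stages, erythroid markers (5 measured) summed to 26.1 to 28.3. B cell markers (7) summed to 30.0 to 32.3 and T and NK cell markers (6) to 29.0 to 30.3. Klrb1c, Ms4a1 and Ppbp were at dim signal in both stages. In LSK cells, which the comparisons with the early stage rest on, the 7 B cell markers summed to 36.9, 42.2 and 35.5, highest on LSK 2, against 30.0 to 32.5 over the later stages, with Ms4a1 at dim signal. The 5 erythroid markers summed to 29.3, 34.7 and 28.5 there, again highest on LSK 2, against 26.1 to 32.4 later. A wider spread was seen in the 5 primary granule genes, the markers of promyelocytes. They summed to 51.8, 54.6 and 41.0 in LSK cells, lowest on LSK 3, against 56.9 to 59.8 in promyelocytes. The part of any of these cells in the members' levels was not tested.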

How the data were processed

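The deposited tables hold log2 values of 34760 probe set rows on 12 arrays. The authors made them from 300 ng of total RNA an array with justRMA (Bioconductor, its version is not given in the sources read), which performs background correction, quantile normalization and median polish. Each value is therefore relative to the whole distribution of its array. Array medians lay between 4.96 and 5.12, and arrays of a stage correlated at 0.981 to 0.991. Gene symbols came from the probe table of the platform: 21640 had 1 symbol and were used, 1321 had several and 11799 had none. Of the rows with 1 symbol, 21553 had a gene identifier that is in RefSeq's gene table. For a gene with several rows (Pcna and Rpa3 among the members) the row with the highest mean was taken, which left 19937 genes. Columns not used numbered 0.

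Tests were made with limma 3.58.1 (lmFit, eBayes; R 4.3.3) in a single fit of the 4 stage means to the 12 arrays, with Benjamini-Hochberg adjustment over all genes. The number of arrays limits the precision, with 8 residual and 7.02 prior degrees of freedom. The thresholds follow the study's methods, and its lists of genes carry adjusted p-values. The script was tested on simulated data. The members and the other lists were chosen with earlier results of these data known. The comparison of the last 2 steps and the removal of 2 arrays together were added after the data were seen. Values on every array are given for the members with the largest and the smallest F of each role and for those called in no comparison; Prim1, Pcna, Cdc7, Dbf4, Pold2 and Rfc2 were chosen after their values were seen. Of the pathway and checkpoint lists, the 5 with the largest F among those called lower and all called higher are named. Promoter windows were read with Python 3.11.15. Figures were drawn with matplotlib 3.10.9.

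Deviations from the stage means of arrays with the same replicate number correlated between -0.25 and 0.25 over 18 pairs. They were over 0.1 in all 3 pairs only for myelocytes against promyelocytes (0.18, 0.12 and 0.20). Over the members alone the values for these pairs were 0.03, -0.003 and 0.25. The labels do not state a pairing, and correlations of this size do not establish one.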

Additional observations from a re-analysis of the deposited data

How the results depend on the processing

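The alternatives were other scalings, choices of rows, filters, thresholds and priors, a replicate block, and the removal of single arrays. Of 209 calls of a member in a comparison, 0 changed direction under any of them. The most calls lost were 14, without myelocyte 1, 11 without promyelocyte 3 and myelocyte 1 together, and 6 with arrays centred on their 75th percentile or without myelocyte 3. From LSK cells to promyelocytes the count of called members, 2, became 6 with a fold of 1.5 or with no fold, and lay between 1 and 4 with single arrays left out. The other counts of called members stayed within 1.5 times of those reported. Calls over all genes were counted for the scalings only, so the counts under other folds or without an array have no share beside them. The members' median difference between granulocytes and LSK cells, -2.41, was -2.20 with 75th percentile centring and lay between -2.59 and -2.36 with single arrays left out. That centring moved the median of all genes between granulocytes and promyelocytes from 0.13 to 0.36 and between granulocytes and LSK cells from 0.17 to 0.39. The split of all calls moved with it, from 2020 higher and 3247 lower to 2566 and 2744 in the first of these, and from 1912 and 3293 to 2440 and 2781 in the second. The split for granulocytes against myelocytes moved from 469 and 1188 to 635 and 886. Centring on the median moved that from LSK cells to promyelocytes from 321 and 549 to 407 and 462. From myelocytes to granulocytes 75th percentile centring took Mcm4 (-0.95), Cdc6 (-0.88), Gins3 (-0.98), Prim2 (-0.91) and Pold3 (-0.98) below the fold required, and quantile normalization Mcm4 (-0.91) and Pold3 (-0.96). With this percentile centring Gins2 no longer passed between granulocytes and promyelocytes (-0.86), nor with quantile (-0.87) or cyclic loess (-1.0) normalization. Differences that were not called changed sign near 0: Orc4 between granulocytes and promyelocytes lay between -0.014 (without promyelocyte 3, also with myelocyte 1 left out) and 0.39 with single arrays left out, and between granulocytes and LSK cells between -0.060 (without LSK 2) and 0.27, with -0.0038 without granulocyte 3. Between myelocytes and promyelocytes, Cdc7 lay between -0.51 and 0.018 (without myelocyte 1), and Dbf4 was 0.0079 without that array and promyelocyte 3. The causes were not tested. With the replicate number as a block, the counts of called members stayed at 2, 38, 31, 35, 48 and 45. This block changed 0 of the 209 calls. The test of the last against the second step then called 11 members in place of 10. The lower row of Rpa3 lost its calls in 3 comparisons. At dim signal, as for 8 members in granulocytes, a difference has only a lower limit of size.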
